A study of Homo sapiens with 6 samples.

Results

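Interferon-stimulated genes are the genes that a cell switches on when an interferon binds its receptors, and 43 of them were followed here through 6 microarrays of SKOV3 cells, an established human ovarian cancer cell line. The 43 were taken from a fixed list of names, out of 18589 genes that had a probe for a protein-coding transcript. No measured value entered the rule, but the list was chosen with earlier results of these data known. The gene name field of the scanner files held only probe names, so the probes of a gene were found by matching each 60-base probe sequence without mismatch to GENCODE release 44 transcripts in the sense direction, and the brightest probe by the mean of the deposited values stood for the gene. An exact match was found for 41 of the 43 members, and IFIH1 and IFITM2 had none.

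On 3 arrays the RNA was labelled as coming from cells given 1α,25(OH)2D3, the hormonally active form of vitamin D, at 100 nmol/L for 72 h, and these are called VD 1, VD 2 and VD 3. On the other arrays, called vehicle 1, vehicle 2 and vehicle 3, the label was ethanol vehicle for 72 h. All samples were the same line in medium with fetal bovine serum, no gene was altered, and no interferon was added by any treatment that the labels name. The labels do not say that replicates came from separate cultures, so p-values measure the spread between these samples, which may be technical.

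Type I interferons signal through IFNAR1 and IFNAR2 and type III interferons through IFNLR1 and IL10RB, and in both cases the kinases JAK1 and TYK2 activate STAT2, which enters the complex ISGF3 together with IRF9. ISGF3 binds the interferon-stimulated response element (ISRE) in the promoters of its target genes. Type II interferon (interferon gamma) acts through the gamma-activated site (GAS) and induces IRF1, itself a transcription factor. The induced proteins sense viral RNA (DDX58, also known as RIG-I, IFIH1 and DDX60), bind or cleave RNA and block translation (the IFIT and OAS families and EIF2AK2, also known as PKR), or hinder virus entry, replication and release (IFITM proteins, MX1, MX2, BST2). Carcinoma cell lines often hold a low, constant level of such transcripts with no interferon added.

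Signals are given as log2 values with each array's 75th percentile set to 0, so 0 is the level that 75% of the probes lay below. Each array held 175812 spots that were not controls, none was saturated, and the scanner software marked 49.1% to 57.6% of all probes as well above background. The lowest share was that of vehicle 2. VD 1 and VD 2 were on one slide and the other 4 arrays on another, so within a slide the labels can be set against each other only on the latter. CYP24A1, the enzyme that inactivates 1α,25(OH)2D3 and is among the most strongly induced target genes of the vitamin D receptor, did not follow the labels. Its probe A_23_P28815 gave -5.10, 6.70 and -3.80 on VD 1, VD 2 and VD 3, and 6.90, -2.48 and 7.29 on vehicle 1, vehicle 2 and vehicle 3, and it was well above background only on VD 2, vehicle 1 and vehicle 3. The labels were kept, arrays were not regrouped by this measured outcome, and every difference below is between arrays as labelled.

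The epithelial markers checked (KRT7, KRT8, KRT19, EPCAM, ERBB2, PAX8 and MUC1) were well above background on all 6 arrays. All 5 leukocyte markers summed here (PTPRC, CD3E, CD14, TYROBP and CD68) were well above background on all 6 arrays as well, so on this array that flag did not separate them from epithelial genes. The summed signal of these 5 lay between 3.58 and 3.87 on the VD arrays and between 3.99 and 4.19 on the vehicle arrays, and CD68, at 1.20, 2.48 and 0.98 on the VD and 3.03, 2.56 and 2.45 on the vehicle arrays, was more than 2-fold lower on VD at an unadjusted p under 0.05 (limma adjusted p = 0.712). Of the 7 fibroblast and endothelial markers with a probe, 3 were well above background on all 6 arrays, and 2, COL3A1 and DCN, on none. The summed signal of that list, 1.93 to 2.05 on the VD and 1.98 to 2.35 on the vehicle arrays, overlapped. The part of these marker genes in the results was not tested. In bulk RNA, fewer cells of a kind and less RNA per cell cannot be told apart.

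The promoters of the members show what the list has in common beside its name. The set of RefSeq (GRCh38.p14) promoters used here held 44 promoters of 34 members, each 250 bases before to 50 bases after the transcription start. The ISRE, searched as GAAANNGAAA and as TTTCNNTTTC on the other strand, was present in 28 of the 44 (63.6%), against 3.58% of all 35093 promoters of that length. The GAS, searched as TTCNNNGAA, which reads the same on both strands, was present in 12 (27.3%) against 7.66% of all promoters. Both motifs overlapped each other in 6 member promoters and in 22 of all promoters. At least 2 ISRE matches stood in 16 of the member promoters and in 91 of all promoters. Promoters of the same gene can overlap, as those of IFI27 and those of IFI44 do, so the same match can be counted more than once. Matches were not counted per gene. Below are the 250 bases upstream of the start for members whose values are described later, with the ISRE in capitals. The motif nearest to the start began 103 bases upstream of it in IFIT1, 51 in IFIT3, 35 in IFITM3 and 127 in GBP1.
IFIT1 promoter, chr10:89392373-89392622, plus strand: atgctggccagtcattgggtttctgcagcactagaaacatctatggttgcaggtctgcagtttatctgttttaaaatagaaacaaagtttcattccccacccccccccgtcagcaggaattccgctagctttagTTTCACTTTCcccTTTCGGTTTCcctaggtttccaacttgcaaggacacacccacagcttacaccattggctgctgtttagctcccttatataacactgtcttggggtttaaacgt
IFIT3 promoter, chr10:89332279-89332528, plus strand: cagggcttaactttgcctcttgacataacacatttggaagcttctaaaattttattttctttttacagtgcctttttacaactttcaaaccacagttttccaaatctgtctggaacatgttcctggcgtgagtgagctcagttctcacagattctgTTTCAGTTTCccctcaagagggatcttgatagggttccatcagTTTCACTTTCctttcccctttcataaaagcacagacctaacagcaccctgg
ISG15 promoter, chr1:1013247-1013496, plus strand: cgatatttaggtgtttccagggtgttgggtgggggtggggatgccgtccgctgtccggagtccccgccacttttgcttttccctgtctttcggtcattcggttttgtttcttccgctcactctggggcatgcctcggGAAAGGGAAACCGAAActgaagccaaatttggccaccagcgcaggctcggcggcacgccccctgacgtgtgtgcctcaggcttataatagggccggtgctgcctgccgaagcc
IFITM3 promoter, chr11:320861-321110, minus strand: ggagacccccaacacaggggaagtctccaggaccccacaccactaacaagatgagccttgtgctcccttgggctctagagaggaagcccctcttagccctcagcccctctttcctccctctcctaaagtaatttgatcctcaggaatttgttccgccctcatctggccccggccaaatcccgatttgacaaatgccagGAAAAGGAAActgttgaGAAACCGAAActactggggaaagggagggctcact
GBP1 promoter, chr1:89065209-89065458, minus strand: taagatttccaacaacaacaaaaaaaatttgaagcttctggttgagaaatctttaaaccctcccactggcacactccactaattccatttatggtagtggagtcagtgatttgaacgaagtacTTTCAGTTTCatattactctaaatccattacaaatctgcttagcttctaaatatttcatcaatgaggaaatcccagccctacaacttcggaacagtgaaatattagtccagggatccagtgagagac

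IRF1 and IRF9, which encode transcription factors of the pathway, held no ISRE by these letters and 1 GAS match each, beginning 124 and 63 bases upstream of the start. Their upstream bases are shown with the GAS in capitals, because these 2 genes were the members whose labelled groups did not overlap.
IRF1 promoter, chr5:132490774-132491023, minus strand: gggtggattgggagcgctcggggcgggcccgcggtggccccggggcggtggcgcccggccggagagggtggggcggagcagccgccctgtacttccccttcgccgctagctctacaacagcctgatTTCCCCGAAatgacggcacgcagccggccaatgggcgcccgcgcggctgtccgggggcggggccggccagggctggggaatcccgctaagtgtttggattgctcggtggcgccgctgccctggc
IRF9 promoter, chr14:24161015-24161264, plus strand: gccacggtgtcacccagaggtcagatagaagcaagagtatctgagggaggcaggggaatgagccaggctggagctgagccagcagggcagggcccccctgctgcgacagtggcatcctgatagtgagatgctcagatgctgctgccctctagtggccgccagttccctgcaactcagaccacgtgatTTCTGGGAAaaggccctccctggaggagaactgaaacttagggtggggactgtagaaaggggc

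A motif match is a description of the letters and not a binding site. The array measured mature transcripts, through probes that for several members lie in the coding sequence. The probes of members described below are given as sequences of the sense strand, without capitals since no part of them is singled out, with coordinates on hg38 found from the GENCODE annotation. They lie in exon 2 of IFIT3, IFITM1 and IFITM3, in exon 4 of OAS1 and in exon 11 of PARP9.
IFIT3 probe, chr10:89340005-89340064, plus strand: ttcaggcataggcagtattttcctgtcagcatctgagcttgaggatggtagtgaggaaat
OAS1 probe, chr12:112916656-112916715, plus strand: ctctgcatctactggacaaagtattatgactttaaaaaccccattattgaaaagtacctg
IFITM1 probe, chr11:315054-315113, plus strand: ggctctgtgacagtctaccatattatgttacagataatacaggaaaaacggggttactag
IFITM3 probe, chr11:319855-319914, minus strand: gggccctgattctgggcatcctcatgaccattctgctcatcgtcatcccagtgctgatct
PARP9 probe, chr3:122528450-122528509, minus strand: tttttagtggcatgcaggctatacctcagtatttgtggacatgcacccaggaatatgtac

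The IFITM3 probe shared 56 of its 60 bases with the transcript of a pseudogene, IFITM3P1, so signal from that transcript could not be told apart from IFITM3 by sequence alone. The probes of IRF1 (exon 10), IRF9 (exon 9), STAT2 (exon 24), GBP1 (exon 11) and TRIM22 (exon 8) lie in the 3′ UTR, and that of IFIT1 (exon 2) spans the end of the coding sequence. The IFITM1 probe also matches an annotated readthrough transcript.

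Most members gave signal well above background whichever label the array carried. Of the 41 members with a probe, 35 were well above background on all 6 arrays. Counted with 1 probe per gene, 12994 genes were so as well, out of 18589 with a probe. The flag also marked the leukocyte markers, so it does not show by itself that the cells held these transcripts. MX1 counted by its brightest probe, while a second MX1 probe, A_23_P17663, was well above background on 4 arrays. OASL, TRIM22 and GBP1 failed only on vehicle 2. IFI44L was well above background on VD 1, VD 3 and vehicle 1, GBP2, a guanylate-binding GTPase, only on vehicle 1, and RSAD2, which encodes the antiviral enzyme viperin, on no array. Per array, 39, 38 and 39 members were well above background on VD 1, VD 2 and VD 3, and 40, 35 and 38 on vehicle 1, vehicle 2 and vehicle 3. The 5 members with the highest mean signal were MX1, IFITM3, DDX58, EIF2AK2 and IFI35. Since probes differ in how they bind and how far from the 3′ end they lie, no order of transcript abundance was read from this.

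**Figure D1:**
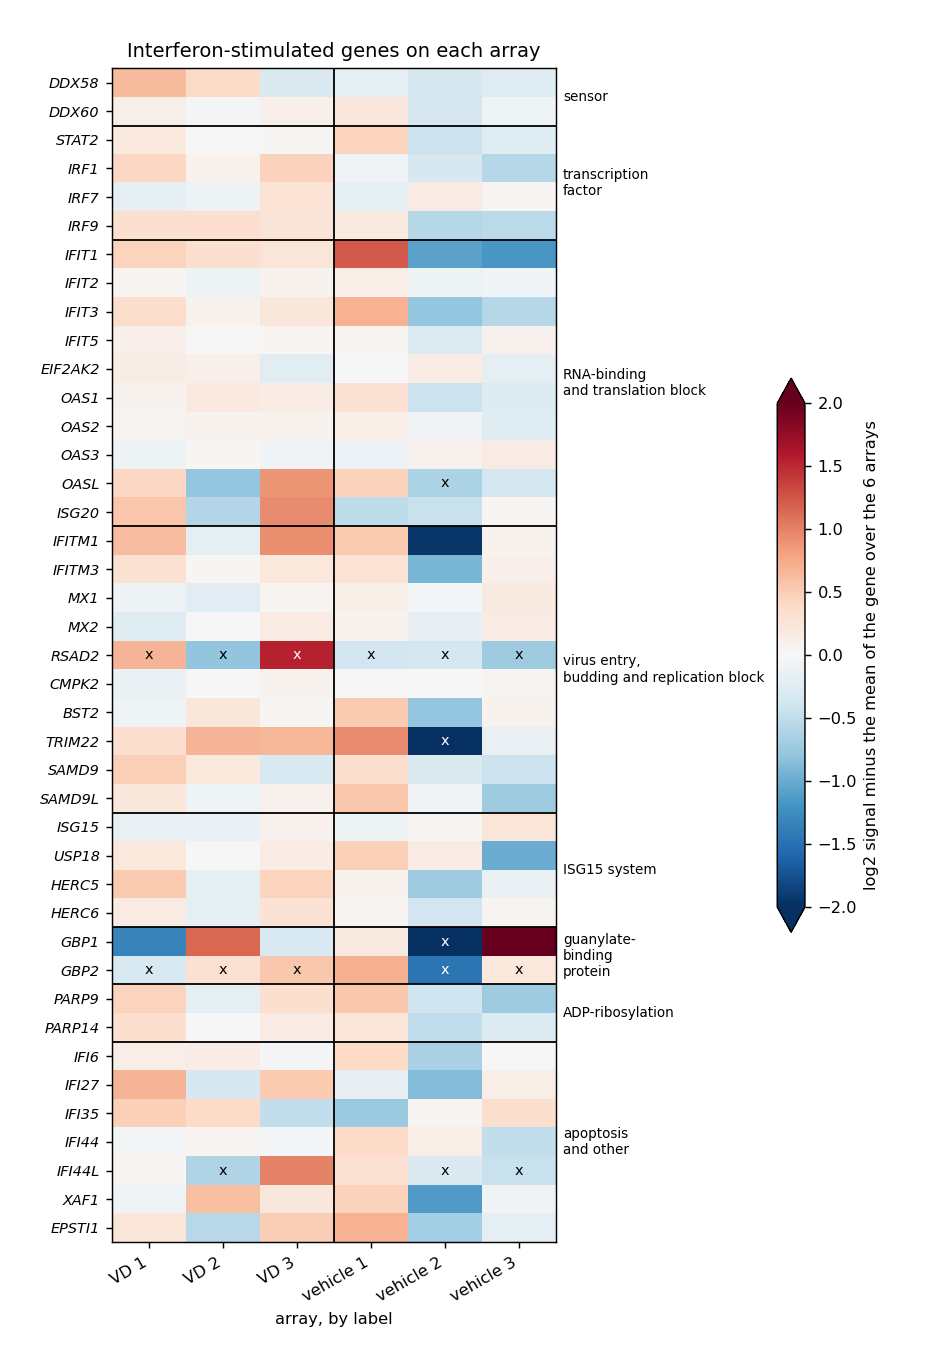
Signal of the 41 members with a probe (rows, in groups by role) on the 6 arrays (columns), as log2 signal minus the mean of the gene over the 6 arrays, with red above and blue below that mean; x marks a probe not well above background. Blue cells gather on vehicle 2, where 17 of the 35 members well above background on all arrays had their lowest value, while vehicle 1 is mostly red like VD 1 and VD 3.

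Between the labels, no member passed the unadjusted threshold, a more than 2-fold difference at an unadjusted p under 0.05 (0 of 38 members tested with limma), which 0.558% of 13616 genes passed. With p-values adjusted by the Benjamini-Hochberg method over all 63372 probes tested, limma called 0 members and 0 probes, and the smallest adjusted p was 0.712. At an unadjusted p under 0.05 alone, 2 members were counted (IRF1 and IRF9), which is 2 of 38 against a background of 4.72% of all genes, and the methods' t-test counted 1. All 3 VD arrays lay above all 3 vehicle arrays for the same 2 members, against 4.08% of all genes. No member had all its VD arrays below all its vehicle arrays, which held for 5.65% of all genes. The median log2 fold change (VD minus vehicle) of the 38 members was 0.21, and 30 were above 0. Over all genes the median was -0.02 and 45.5% were above 0.

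**Figure D2:**
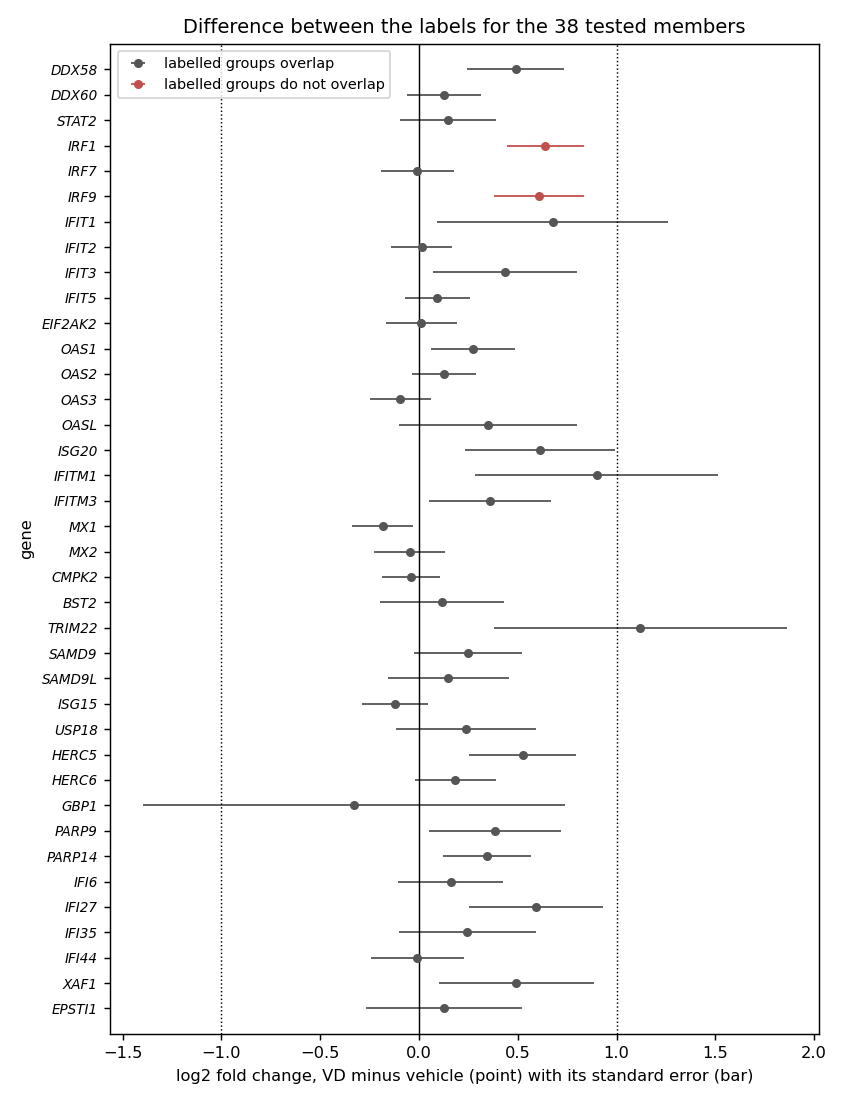
Log2 fold change (x axis, VD minus vehicle) of each of the 38 tested members (y axis), with its standard error as a bar, and dotted lines at a fold change of 2. Most points lie between 0 and 1, their bars are wide for the members that varied most between arrays, and IRF1 and IRF9, in red, are the members whose labelled groups did not overlap.

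IRF1, which is induced by interferon gamma and itself activates many members, gave 1.74, 1.40 and 1.80 on VD 1, VD 2 and VD 3, and 1.25, 1.01 and 0.76 on vehicle 1, vehicle 2 and vehicle 3. The lowest VD array stood just above the highest vehicle array. Its mean was 1.65 ± 0.21 (SD, n = 3) on the VD and 1.01 ± 0.25 (SD, n = 3) on the vehicle arrays, a log2 fold change of 0.64 with a standard error of 0.19 (limma adjusted p = 0.712), or a 1.56-fold difference. On the slide that holds both labels, VD 3 exceeded the mean of the vehicle arrays by 0.79, with a standard error of 0.28. With single arrays left out, the log2 fold change of IRF1 lay between 0.51 and 0.76 and its unadjusted p stayed under 0.05.

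IRF9, the DNA-binding subunit of ISGF3, gave 0.86, 0.88 and 0.81 on the VD arrays and 0.74, -0.02 and 0.00 on vehicle 1, vehicle 2 and vehicle 3. Vehicle 1 lay next to the VD arrays, so the difference came from the other 2 vehicle arrays. The log2 fold change was 0.61 with a standard error of 0.23 (limma adjusted p = 0.712), and 0.57 with a standard error of 0.39 on the slide with both labels. With single arrays left out, the log2 fold change lay between 0.48 and 0.86, and its unadjusted p was under 0.05 only without vehicle 1. A second, dimmer probe of IRF9, A_23_P354547, gave -1.44, -1.40 and -1.57 on the VD arrays and -1.72, -2.14 and -2.08 on the vehicle arrays, and also did not overlap.

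STAT2, the partner of IRF9 in ISGF3, gave -0.66, -0.85 and -0.83 on the VD arrays and -0.40, -1.29 and -1.09 on the vehicle arrays. Vehicle 1 was its highest array and vehicle 2 and vehicle 3 its lowest, so the labelled groups overlapped. The log2 fold change was 0.15 with a standard error of 0.24 (limma adjusted p = 0.872), and it was -0.032 without vehicle 2. IRF7, the regulator that amplifies interferon production, ranged from 1.39 to 1.84 over the 6 arrays, with a log2 fold change of -0.01.

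IFIT1, which binds viral RNA that lacks the host cap marks, showed the same 2 vehicle arrays apart from the rest. Its signal was -0.48, -0.62 and -0.68 on the VD arrays and 0.30, -2.01 and -2.10 on vehicle 1, vehicle 2 and vehicle 3. Its highest and its lowest arrays thus both carried the vehicle label. The vehicle arrays spread by 1.36 (SD, n = 3) and the VD arrays by 0.10 (SD, n = 3), and the log2 fold change of 0.68 had a standard error of 0.58 (limma adjusted p = 0.763). Without vehicle 1 the log2 fold change was 1.46 with a standard error of 0.17 (limma adjusted p = 0.160), which passes the unadjusted threshold. Without vehicle 2 it was 0.31 and without vehicle 3 it was 0.26.

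IFIT3, which stabilises IFIT1, gave -0.10, -0.38 and -0.22 on the VD arrays and 0.24, -1.22 and -1.02 on the vehicle arrays, with vehicle 1 again the highest array and the same 2 arrays the lowest. The IFIT1 and IFIT3 promoters shown above each carry 2 ISRE matches. The brightest IFIT2 probe was nearly flat, between 0.12 and 0.36, and IFIT5 ranged from 0.16 to 0.53.

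The oligoadenylate synthetases did not move as 1 family. Of these enzymes, which activate the RNA-degrading enzyme RNase L, OAS1 ranged from -2.19 to -1.47 and OAS2 from 0.50 to 0.88, and both had vehicle 2 and vehicle 3 as their 2 lowest arrays. OAS3 did not follow them, with vehicle 3 its highest array at 2.77 and vehicle 1 its lowest at 2.49. OASL, a family member without synthetase activity, gave -1.69, -2.89 and -1.23 on the VD arrays and -1.65, -2.74 and -2.46 on the vehicle arrays, low on VD 2 as well. EIF2AK2, the RNA-activated kinase that stops translation, stayed between 3.28 and 3.67. ISG20, an RNA exonuclease, gave -1.30, -2.44 and -0.91 on the VD arrays and -2.36, -2.30 and -1.82 on the vehicle arrays. VD 2 was the lowest of its arrays and VD 1 and VD 3 the highest, and without VD 2 its log2 fold change was 1.06 (limma adjusted p = 0.817), which passes the unadjusted threshold.

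Of the members that act on virus entry, replication and release, IFITM1, IFITM3, BST2 and TRIM22 were lowest on vehicle 2 by their brightest probes, while MX1, MX2, CMPK2, SAMD9 and SAMD9L were not. IFITM1, a membrane protein that blocks fusion of viruses with the cell, gave 2.01, 1.18 and 2.31 on the VD arrays and 1.91, -0.56 and 1.46 on vehicle 1, vehicle 2 and vehicle 3. A second IFITM1 probe, A_23_P72737, was also lowest on vehicle 2, at -0.89 against 0.20 to 1.14 on the other arrays. The log2 fold change of IFITM1 was 0.90 with a standard error of 0.61 (limma adjusted p = 0.721), and it fell to 0.15 without vehicle 2.

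IFITM3, its relative in endosomes, gave 7.89, 7.60 and 7.79 on the VD arrays and 7.86, 6.66 and 7.69 on the vehicle arrays. Apart from vehicle 2 all arrays lay between 7.60 and 7.89. BST2, which tethers budding virus particles to the cell, was lowest on vehicle 2 at 2.16 and highest on vehicle 1 at 3.46. Vehicle 2 was the array with the smallest share of probes above background, and the part of that in these low values was not tested.

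TRIM22, an antiviral ubiquitin ligase, had the largest log2 fold change of the 38 members, 1.12 with a standard error of 0.74 (limma adjusted p = 0.718). Its signal was -0.84, -0.49 and -0.52 on the VD arrays and -0.24, -3.65 and -1.33 on the vehicle arrays. On vehicle 2 the probe was not well above background, and vehicle 1 was its highest array. Without vehicle 2 the log2 fold change was 0.17, and without vehicle 1 it was 1.87 (limma adjusted p = 0.397). A second TRIM22 probe, A_23_P139250, gave -1.58, -2.78 and -2.03 on the VD arrays and -1.42, -2.37 and -2.06 on the vehicle arrays, with a difference of -0.18 and VD 2 as its lowest array, so the difference was not seen on both probes of this gene.

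MX2, a GTPase that blocks nuclear entry of viruses, ranged from -1.43 to -1.02 and CMPK2, a mitochondrial nucleotide kinase next to RSAD2, from -0.33 to -0.12. SAMD9 ranged from -0.09 to 0.81 and SAMD9L from -0.32 to 0.95, both lowest on vehicle 3. Over all members well above background on the 6 arrays, the range between the lowest and the highest array had a median of 0.90, against 0.64 over the 12994 genes of that kind, exceeded 1 in 16 of the 35 and was under 0.5 in 10.

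ISG15, a ubiquitin-like protein that is attached to other proteins, is among the most widely used markers of an interferon response, and it was nearly even. It gave 0.99, 1.01 and 1.23 on the VD arrays and 1.03, 1.19 and 1.38 on the vehicle arrays, with its highest value on vehicle 3. USP18, which removes ISG15 and damps IFNAR signalling, was low only on vehicle 3, at -1.58 against -0.59 to -0.11 on the other arrays. HERC5, the main ligase for ISG15, gave 2.00, 1.30 and 1.92 on the VD arrays and 1.55, 0.76 and 1.33 on the vehicle arrays, and HERC6 ranged from 1.32 to 2.01. For both, vehicle 2 was the lowest array. The log2 fold changes of the 4 genes lay between -0.12 and 0.52, and 0 of the 4 had an unadjusted p under 0.05.

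PARP9 and PARP14, ADP-ribosyltransferases of the interferon response, were both lower on vehicle 2 and vehicle 3 than on every other array. PARP9 gave 1.20, 0.59 and 1.08 on the VD arrays and 1.30, 0.36 and 0.05 on the vehicle arrays. PARP14 gave 2.18, 1.86 and 2.02 on the VD arrays and 2.09, 1.36 and 1.58 on the vehicle arrays. Of the remaining members, IFI6, a mitochondrial protein that counters apoptosis, was lowest on vehicle 2 at 2.35 against 2.98 to 3.42 elsewhere. XAF1, which antagonises the apoptosis inhibitor XIAP, was lowest on vehicle 2 at -2.16. IFI27, another small mitochondrial protein, gave -0.48, -1.48 and -0.64 on the VD arrays and -1.32, -2.02 and -1.03 on the vehicle arrays. EPSTI1 was lowest on vehicle 2 at -2.04 but only a little higher on VD 2 at -1.91. IFI44 was lowest on vehicle 3 at -0.86, and its log2 fold change was -0.01. IFI35, a partner of NMI, stood apart with its highest values on VD 1 at 3.65, VD 2 at 3.56 and vehicle 3 at 3.49, and its lowest on vehicle 1 at 2.44.

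**Figure D3:**
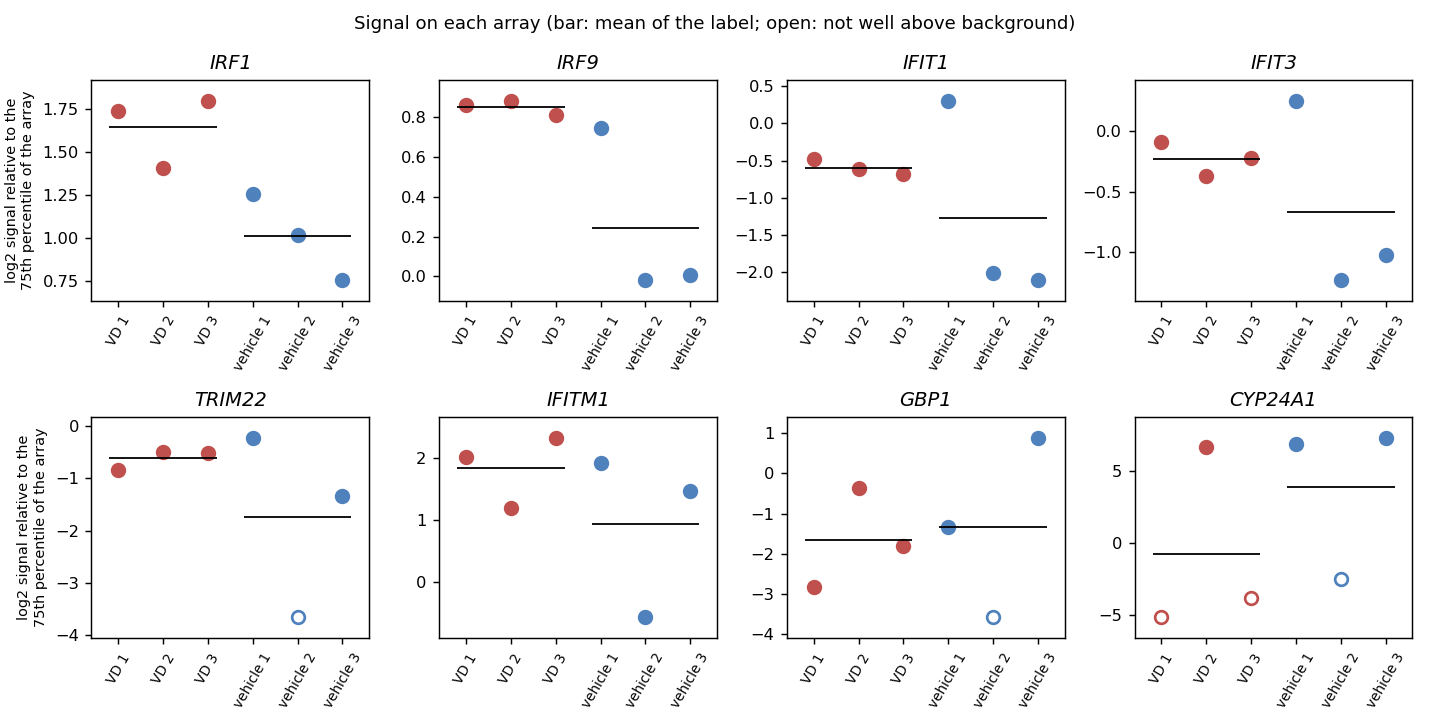
Signal of 7 members and of CYP24A1 (A_23_P28815) on each array (y axes, log2 signal relative to each array's 75th percentile, each panel on its own scale), red for VD and blue for vehicle, open where not well above background, with the mean of each label as a line. IRF1 and IRF9 do not overlap between labels, IFIT1 and IFIT3 are low on vehicle 2 and vehicle 3, TRIM22 and IFITM1 are lowest on vehicle 2, and GBP1 is highest on the same arrays as CYP24A1. A link between GBP1 and CYP24A1 was not tested.

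GBP1, a GTPase that attacks the membranes of intracellular pathogens and is a strong target of interferon gamma, varied more than any other member. It gave -2.84, -0.36 and -1.82 on VD 1, VD 2 and VD 3, and -1.32, -3.58 and 0.87 on vehicle 1, vehicle 2 and vehicle 3. Its 3 highest arrays, vehicle 3, VD 2 and vehicle 1, were those on which CYP24A1 was well above background, at 7.29, 6.70 and 6.90, and its other 3 arrays were those on which it was not. BST2 had the same 3 highest arrays, at 2.99 on vehicle 3, 3.16 on VD 2 and 3.46 on vehicle 1, but VD 3 at 2.96 was close to them. The share of all genes with these 3 highest arrays was not counted, and a link of either gene with CYP24A1 was not tested. By label, the log2 fold change of GBP1 was -0.33 with a standard error of 1.07 (limma adjusted p = 0.943), and its sign turned when VD 1 (0.26) or vehicle 3 (0.78) was left out. The GBP1 probe shared 47 of its 60 bases with GBP3, a neighbouring paralog. GBP2 gave -3.63, -3.03 and -2.79 on the VD arrays and -2.62, -4.78 and -3.11 on the vehicle arrays, above background only on vehicle 1, so no fold change is given.

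A mean over the members placed the arrays in an order that the labels did not set. Over the 35 members well above background on all arrays, the mean signal was 1.36, 1.17 and 1.32 on VD 1, VD 2 and VD 3 and 1.36, 0.76 and 0.98 on vehicle 1, vehicle 2 and vehicle 3. Vehicle 1 was as high as VD 1, and vehicle 2 the lowest. The label means were 1.29 ± 0.10 (SD, n = 3) and 1.03 ± 0.30 (SD, n = 3), which differ by 0.25, while all genes above background on all arrays differed by -0.03. No test was made on this mean. The difference was 0.29 on the slide that holds both labels, 0.42 without vehicle 1 and 0.12 without vehicle 2.

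Member by member, the same arrays stood out. The lowest value of the 6 was on vehicle 2 for 17 of the 35 members (48.6%), against 15.4% of all genes, and on vehicle 3 for 8 (22.9%), against 14.9%. VD 3 held the lowest value of 1 member, against 23.7% of all genes. Vehicle 1 held the highest value of 14 of the 35 members, against 14.8% of all genes. Vehicle 2 and vehicle 3 were together the 2 lowest arrays for 10 members (28.6%), namely DDX60, STAT2, IRF1, IRF9, IFIT1, IFIT3, OAS1, OAS2, PARP9 and PARP14, against 8.52% of all genes. These counts were chosen after the values were seen and are a description of these 6 arrays.

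**Figure D4:**
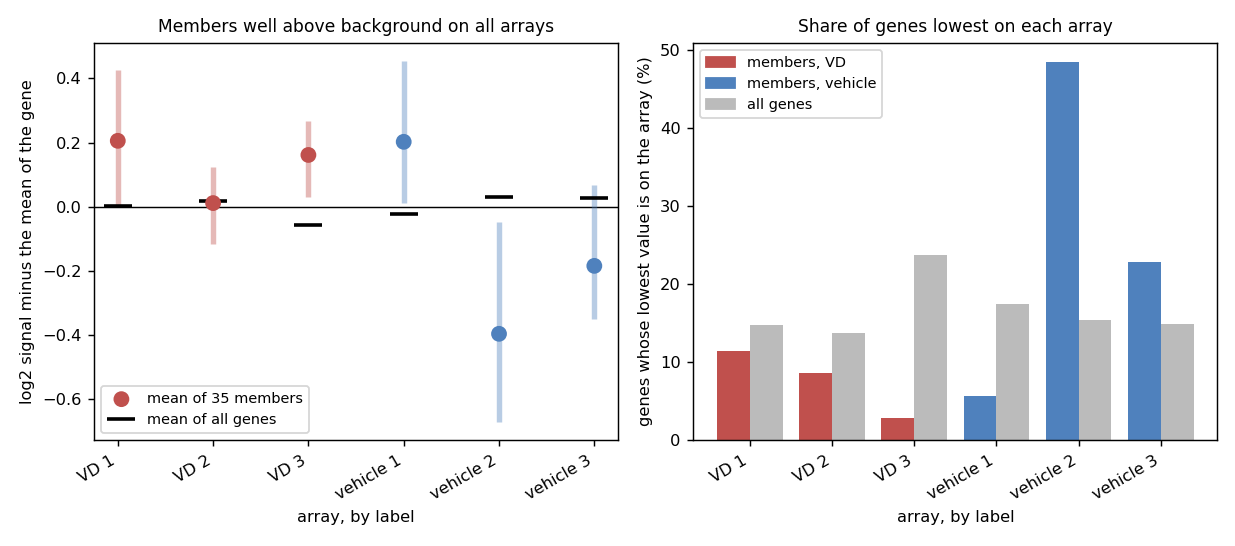
Left, mean over the 35 members well above background on all arrays (points, red VD and blue vehicle; light bars run from the lower to the upper quartile of the members) and over all such genes (black dashes), as log2 signal minus the mean of each gene (y axis), for each array (x axis). Right, percentage of members (coloured) and of all genes (grey) whose lowest value is on the array; vehicle 2 holds 48.6% of the members and 15.4% of all genes.

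For several members, among them MX1, IFIT2 and DDX58, the result turned on which probe stood for the gene. MX1, a GTPase that traps viral nucleocapsids, was represented by a probe in the 5′ UTR of a transcript that is not the principal one (OEV5_32607) that gave 9.89 to 10.27 on all arrays, with a log2 fold change of -0.18. A second MX1 probe, A_23_P17663, which matches 33 protein-coding transcripts, gave -2.15, -2.40 and -2.70 on the VD arrays and -2.37, -3.20 and -3.15 on the vehicle arrays, lowest on vehicle 2 and vehicle 3. For IFIT2, the brightest probe OEV5_72904 lies in the 5′ UTR of 1 transcript, while A_23_P24004 matches 8 transcripts and gave -0.59, -0.66 and 0.01 on the VD arrays and -0.30, -1.97 and -1.39 on the vehicle arrays. The latter was thus again low on vehicle 2 and vehicle 3, as IFIT1 and IFIT3 were. Other probes went the other way. Probe A_33_P3225522 of OAS2 was lowest on VD 1 at -0.08 and VD 2 at 0.11, while A_23_P204087 of OAS2 was lowest on vehicle 2. Probe OEV5_29685 of EPSTI1 was lowest on VD 2 at -3.60, but well above background on only 2 arrays. For XAF1, OEV5_47122, which matches no protein-coding transcript, was lowest on VD 2 at 0.27, and A_24_P557479 on vehicle 2 at -3.84.

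For DDX58, the cytosolic sensor RIG-I, the brightest probe gave 5.33, 5.08 and 4.40 on the VD arrays and 4.51, 4.38 and 4.46 on the vehicle arrays. It shared 49 of its 60 bases with the transcript VLDLR-AS1 and also matched a readthrough transcript. A second probe, A_33_P3418170, gave -1.82, -2.64 and -2.34 on the VD arrays and -2.14, -4.24 and -3.16 on the vehicle arrays. It was highest on VD 1, as the brightest probe was, and lowest on vehicle 2 and vehicle 3. DDX60, a helicase that assists RIG-I, had 0.47 on vehicle 2 and 0.73 on vehicle 3 as its lowest values and 1.03 on vehicle 1 as its highest. With the probe that matches the most protein-coding transcripts, the median log2 fold change of the tested members was 0.25, and again 0 were called.

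**Figure D5:**
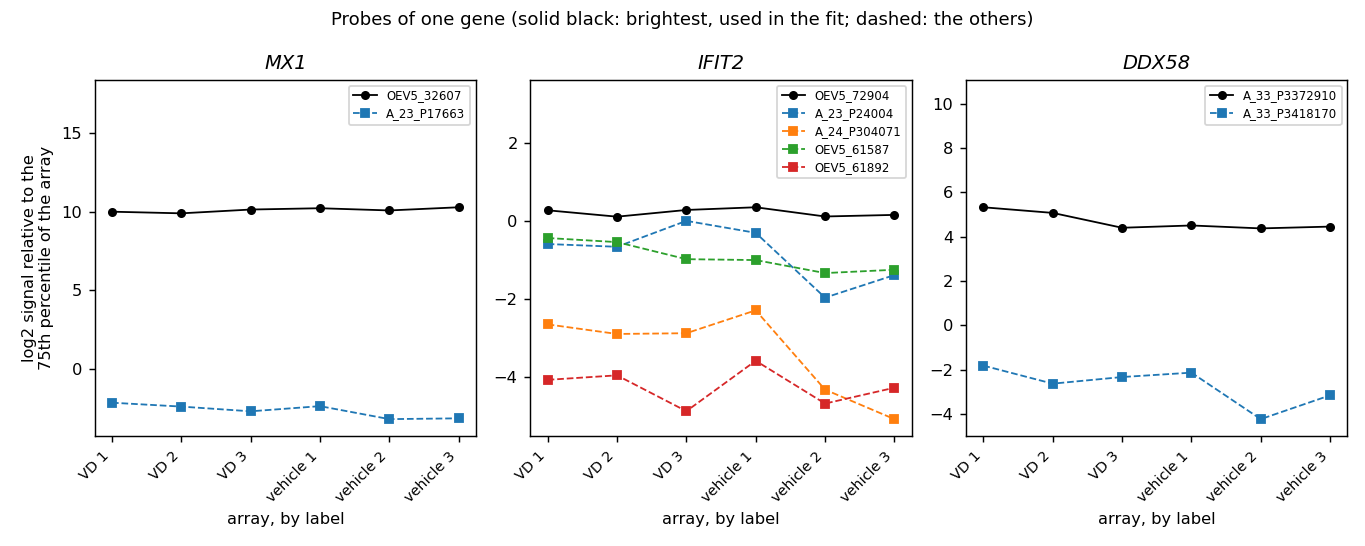
Signal of every probe matched to MX1, IFIT2 and DDX58 (y axes, log2 signal relative to each array's 75th percentile, each panel on its own scale) on each array (x axis), with the brightest probe as a solid black line and the others dashed. The brightest MX1 and IFIT2 probes are flat, while A_23_P17663, A_23_P24004 and A_33_P3418170 dip on vehicle 2 and vehicle 3.

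The genes upstream of the members and other genes of the pathway were taken from lists of 73 names, of which 67 had a probe and 50, measured by 49 probes, were tested. At the unadjusted threshold limma called 0 of them, at an adjusted p under 0.05 again 0, and at an unadjusted p under 0.05 alone 1, which was PLSCR1, against 4.72% of all genes. The median log2 fold change was 0.09 and 32 of the 50 were above 0. The VD arrays lay above the vehicle arrays for 3 of the 50 (PLSCR1, TAP1 and IFNLR1), against 4.08% of all genes, and below them for 1 (TYK2), against 5.65%.

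Most interferons themselves were at background. Of the 17 ligand genes with a probe, 11 were not well above background on any array, among them IFNB1, a type I interferon, and IFNG. IFNE, an interferon of the reproductive tract, ranged from -0.79 to 0.28 with its lowest value on vehicle 2, and IFNL2, a type III interferon, from 1.22 to 1.79. IFNA4 and IFNA17 shared 1 probe, which was well above background on all arrays. All 6 receptor genes were well above background on all 6 arrays, and their log2 fold changes were all above 0, with a median of 0.14. IFNLR1, the specific receptor chain for type III interferon, gave -0.60, -0.40 and -0.77 on the VD arrays and -0.87, -0.91 and -0.88 on the vehicle arrays, a log2 fold change of 0.30 with a standard error of 0.16 (limma adjusted p = 0.712).

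TYK2, a kinase bound to IFNAR1, gave 0.39, 0.39 and 0.54 on the VD arrays and 0.65, 0.77 and 0.67 on the vehicle arrays, a log2 fold change of -0.26 with a standard error of 0.15 (limma adjusted p = 0.712). The labelled groups of TYK2 were thus close but separate. PLSCR1, an interferon-induced phospholipid scramblase, gave 1.33, 0.92 and 1.09 on the VD arrays and 0.51, 0.67 and 0.30 on the vehicle arrays, a log2 fold change of 0.62 with a standard error of 0.18 (limma adjusted p = 0.712). TAP1, the peptide transporter for MHC class I, ranged from 2.67 to 2.86 on the VD arrays and from 2.33 to 2.58 on the vehicle arrays.

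Some genes outside the list were also lowest on vehicle 2 and vehicle 3, and others were highest on 1 of them. TLR3, the endosomal sensor of double-stranded RNA, gave -1.59, -1.97 and -2.02 on the VD arrays and -1.01, -4.52 and -5.02 on the vehicle arrays, and on vehicle 2 and vehicle 3 it was not well above background. TNFSF10, the death ligand TRAIL and an interferon-induced gene, gave 1.57, 0.02 and 1.94 on the VD arrays and 2.60, -1.04 and -0.92 on the vehicle arrays. Both were highest on vehicle 1, as IFIT1, IFIT3, STAT2 and TRIM22 were. IFI16, a DNA sensor, SP110, a nuclear body protein, and NMI, which binds STAT proteins and IFI35, also had vehicle 2 and vehicle 3 as their 2 lowest arrays. TYK2 and TBK1, in contrast, were highest on vehicle 2, and TICAM1 and IRF3 on vehicle 3. The genes named here were picked from the lists after their values were seen. How many genes of these lists had the 2 arrays lowest was not counted, and among all genes above background on all arrays the share was 8.52%.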

How the data were processed

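Cyanine-3 cRNA of each sample was hybridised to a single-color Agilent array. Spots were quantified by the authors with Agilent Feature Extraction (version 10.7.1.1 in the submitters' processing notes), and the deposited intensity of each spot, on a linear scale, had been detrended and background-subtracted within its array. The authors also deposited a table of quantile-normalized log2 values, used here to pick the brightest probe of a gene and as an alternative. No column belonged to another sample.

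Control and outlier spots were removed, replicate spots averaged, and log2 intensities centred on each array's 75th percentile. Of 125601 probes, 17 lacked a value on some array. The 63372 probes flagged well above background throughout at least 1 labelled group entered a limma 3.58.1 fit in R 4.3.3 without covariates, as in the methods of the study, with Benjamini-Hochberg adjustment. Counts over all genes used 1 probe per gene (13616 tested). In a simulation with 200 of the 63372 probes shifted by 2 on the log2 scale, limma recovered 98.5% of them at the unadjusted and 71.5% at the adjusted threshold, and called 349 and 9 unshifted probes. The simulated noise was independent between probes and arrays. The largest difference of a tested member was 1.12 (TRIM22), and recovery of differences of that size was not simulated. The number of arrays limits the precision.

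The members and other gene lists were chosen with earlier results of these data known. Differences with errors are given by rule for members whose labelled groups did not overlap or that passed the unadjusted threshold, the 3 largest fold changes, and GBP1, IRF1, STAT2 and IRF9. Values per array are given by rule for these, the 5 brightest and the 5 most variable members, and other values were picked after they were seen. Probe similarity was searched with blastn 2.17.0. The file headers name the hg19 build, and placements are on hg38. RefSeq promoters were matched by symbol for 34 members. Some items are not reported here.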

Additional observations from a re-analysis of the deposited data

How the results depend on the processing

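No member reached an adjusted p under 0.05 under any of the alternatives, and at the unadjusted threshold the count of members stayed at 0 under quantile normalization, normexp background correction, the authors' deposited log2 values, both other filters, the replicate block, the methods' t-test, adjustment within mRNA probes and the other choices of probe. It was 1 with the slide as a block (ISG20, against 0.94% of all genes), 2 on the slide with both labels (ISG20 and IFI44L, against 1.43%), where VD 3 is assumed to vary like the vehicle arrays, and between 0 and 2 when single arrays were left out (ISG20 without VD 2, against 1.33%, IFIT1 and TRIM22 without vehicle 1, against 2%). The count at an unadjusted p under 0.05, 2 with all arrays, lay between 1 and 10 with an array left out, the 10 without vehicle 1 against 9.42% of all genes, was 1 by the methods' t-test, and was 5 in the fit with the replicate block, against 5.79% of all genes. That block is no sign of pairing, since deviations of same-numbered arrays correlated at 0.12, 0.09 and -0.04, and 1 of the 3 VD arrays correlated best with the vehicle array of its own number. The members with all VD above all vehicle arrays numbered 2 to 11 with an array left out and those below 0 to 2, and without vehicle 1 they were 11 and 1, against 11.6% and 15.7% of all genes. On the slide with both labels they were 11 and 1, against 18.3% and 29.8%, and with the mean over the probes of a gene 1 member lay below. No share of all genes was counted for that mean over probes. The count of other pathway genes called was 1 of 67 with no filter on background, where the share of all genes was not counted either. It was between 0 and 2 with an array left out, the 2 being of 50 tested without vehicle 1, against 2% of all genes. The mean over the members differed between labels by 0.12 to 0.42 with an array left out, and the median log2 fold change of the members was 0.11 to 0.47. With an array left out the log2 fold change ran from -1.45 to 0.78 for GBP1, above 0 without VD 1 (0.26) and without vehicle 3 (0.78), and from -0.032 to 0.41 for STAT2, below 0 without vehicle 2. Of 277 values under all alternatives, 248 kept their direction and side of the threshold or, for counts and means, stayed near the main value. For the mean over the members, near meant a shift under its pooled SD of 0.23, so 0.12 and 0.42 both counted as near. TRIM22 at 0.17 without vehicle 2 counted as kept. The tally therefore does not show that the sizes of differences held. The added choices of probe were made after seeing the data. The causes were not tested, and signals near background limit what GBP2, RSAD2, IFI44L and most interferon ligands can show.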
